A study of Mus musculus with 66 samples.

Results

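The 10 genes described here are imprinted in the mouse and were followed through all libraries of the series: Meg3, Rian, Mirg and Dlk1 of the Meg3 locus, H19, Igf2 and Cdkn1c of distal chromosome 7, and Peg3, Peg10 and Grb10. They were found by matching the Ensembl identifiers of the raw count tables to gene symbols, and all 10 were present among the 39179 genes of the tables. The group was put together with the low levels in BC57 cells in view, so the difference between BC57 cells and urothelium is given here as values and without a test.

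An imprinted gene is transcribed mainly from the copy inherited from one parent. DNA methylation set in the germ line marks a control region on either the maternal or the paternal copy. At the Meg3 locus (also called Dlk1-Dio3) the maternal copy gives a long run of noncoding RNA, annotated as Meg3, Rian and Mirg, in which snoRNAs and a large miRNA cluster lie, while the paternal copy gives the protein genes Dlk1 and Rtl1. H19 and Igf2 share enhancers on opposite parental copies. Many imprinted genes are known as regulators of fetal growth that are turned down after birth, and several stay expressed in stromal and progenitor cells of adult tissue.

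The samples were BC57, a mouse bladder cancer cell line cultured with fetal bovine serum, and normal urothelium, the epithelium lining the bladder, taken from 9 mice. Each was kept as formalin-fixed, paraffin-embedded material (FFPE, 24 hours in formalin) and fresh frozen (FF). The Ovation SoLo kit, which primes at random and depletes ribosomal sequence, was used at inputs of 50 pg, 250 pg and 2 ng, and SMARTer Pico, which switches template, at 250 pg and 2 ng. FF RNA was also made into poly(A)-selected libraries from 1 µg, and there were 22 groups of 3 libraries. FFPE and FF RNA came from different extraction kits, so fixation and extraction cannot be told apart. The sources used here do not say how the 9 mice were combined. The 3 libraries of a group are repeats that nothing in the labels ties to separate mice or cultures, so every p-value below measures only the spread between libraries, which may be technical.

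Levels are CPM, a gene's count scaled to the total count of its library. Total counts ran from 928722 to 4706030 in Ovation, from 651879 to 7152648 in SMARTer and from 18499591 to 36187226 in poly(A) libraries, so that 1 count weighs far less in the poly(A) data. BC57 poly(A) libraries held the simple-epithelial keratin Krt7 at 3394 CPM, the uroplakin Upk1a at 1.66 CPM, the uroplakin Upk3a at 0.0448 CPM and the basal keratin Krt5 at 19.9 CPM (means), against 1766, 2615, 1670 and 1679 CPM in urothelium. Of 14 urothelial markers, 12 were lower and 2 higher in BC57 cells (edgeR quasi-likelihood test, adjusted p under 0.05), where 48.5% of all genes tested were lower and 42.8% higher. The fibroblast list (12 genes) summed to 367 to 393 CPM in BC57 cells, most of it fibronectin (Fn1, 345 to 369 CPM), against 9246 to 10058 CPM in urothelium. In bulk RNA, fewer cells of a type and less RNA per cell cannot be told apart.

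Some libraries stood apart from their group. In both SMARTer FFPE groups of urothelium, library 3 had a fibroblast sum of 3556 CPM (250 pg, on 651879 counts, the fewest of any library) and 3520 CPM (2 ng), against 11797 to 12026 CPM in libraries 1 and 2. Its proliferation sum was 405 and 394 CPM, against 51.3 to 92.0 CPM. In BC57 SMARTer FFPE at 2 ng, library 3 held the 10 genes at a summed 66.5 CPM, against 9.56 and 5.69 CPM in libraries 1 and 2. At 250 pg, BC57 SMARTer FFPE library 3 held them at 29.7 CPM, against 5.82 and 10.7 CPM. In Ovation FF urothelium at 250 pg, library 3 differed from libraries 1 and 2 by a chi-square per gene of 28.5 and 27.03, against 5.48 between those libraries. Its proliferation sum was 46.9 CPM, against 128 and 123 CPM in libraries 1 and 2, and the endothelial gene Emcn had no count, against 40.8 and 29.5 CPM.

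The miRNA hairpins of the Meg3 locus lie within its long noncoding RNA, so reads over them are not a separate readout. Of a list of 51 hairpin genes of the locus, 45 were in the count tables, and the following mature sequences (RefSeq, GRCm38.p6, chromosome 12, plus strand) belong to the 5 hairpin genes with the most counts. They are shown 5′ to 3′ with the seed, bases 2 to 8, in capitals.
mmu-miR-433-5p: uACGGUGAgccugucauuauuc
mmu-miR-433-3p: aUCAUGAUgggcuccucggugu
mmu-miR-341-5p: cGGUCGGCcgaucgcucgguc
mmu-miR-341-3p: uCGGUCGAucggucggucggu
mmu-miR-382-5p: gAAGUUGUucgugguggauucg
mmu-miR-382-3p: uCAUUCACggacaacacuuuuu
mmu-miR-485-3p: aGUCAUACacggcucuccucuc
mmu-miR-410-3p: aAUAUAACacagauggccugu
mmu-miR-410-5p: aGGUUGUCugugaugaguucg
mmu-miR-494-5p: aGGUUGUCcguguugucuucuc
The last of these is shown because it shares its seed with miR-410-5p. Over the 96 mature miRNAs of the 51 hairpins there were 89 distinct seeds, and 7 seeds were shared, each by 2 miRNAs. Another such pair is miR-379-3p with miR-411-3p:
mmu-miR-379-3p: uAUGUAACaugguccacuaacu
mmu-miR-411-3p: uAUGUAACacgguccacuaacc

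Promoters of Meg3 and Peg3 are shown because these were the most abundant members per length in the poly(A) libraries of urothelium and were nearly silent in BC57 cells. Each runs from 250 bases before to 50 after the RefSeq start (GRCm38.p6), and 7 of the 10 genes matched, with 12 starts. The motifs searched on both strands were TGACGTCA (the cAMP response element, identical on both strands), TATAAA (the TATA box) and GGGCGG (the GC box), and matches are in capitals.
Meg3, chr12:109540746-109541045, plus strand: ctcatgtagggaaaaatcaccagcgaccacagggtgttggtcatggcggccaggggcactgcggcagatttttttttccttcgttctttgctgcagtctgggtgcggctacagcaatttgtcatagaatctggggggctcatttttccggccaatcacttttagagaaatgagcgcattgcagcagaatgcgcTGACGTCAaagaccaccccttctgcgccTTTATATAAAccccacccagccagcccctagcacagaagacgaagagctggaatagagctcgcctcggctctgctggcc
Peg3, chr7:6730370-6730669, minus strand: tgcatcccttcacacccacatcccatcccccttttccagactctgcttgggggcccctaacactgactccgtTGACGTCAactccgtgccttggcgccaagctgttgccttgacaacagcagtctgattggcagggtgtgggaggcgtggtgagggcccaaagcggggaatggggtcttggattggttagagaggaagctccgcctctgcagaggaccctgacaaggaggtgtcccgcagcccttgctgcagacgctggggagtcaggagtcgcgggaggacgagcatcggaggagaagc
TGACGTCA occurred once in each of these 2 windows and in none of the other 10 windows of members, and 1.79% of all 32851 promoters of the table held it. The Meg3 window also held TATAAA on both strands, in overlapping positions, and 13.6% of all promoters held that motif. Neither window held GGGCGG, which 35.7% of all promoters did, while the first Grb10 start had 5 matches. Both windows had 13 CG dinucleotides, against a median of 7 over all promoters, and 62.1% of all promoters had fewer than 13. A match of letters says nothing of binding, and DNA methylation was not measured.

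In the poly(A) libraries, 9 of the 10 genes lay lower in all 3 BC57 libraries than in all 3 urothelium libraries, and Cdkn1c did not separate. Over the 27074 genes with a count in these libraries, 40.4% lay lower in the same way, and since the genes were chosen on this difference nothing is read from their count. Igf2 and Cdkn1c kept a steady count in BC57 cells, and the other 8 had 0 to 10 counts over the 3 BC57 libraries together.

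**Figure D1:**
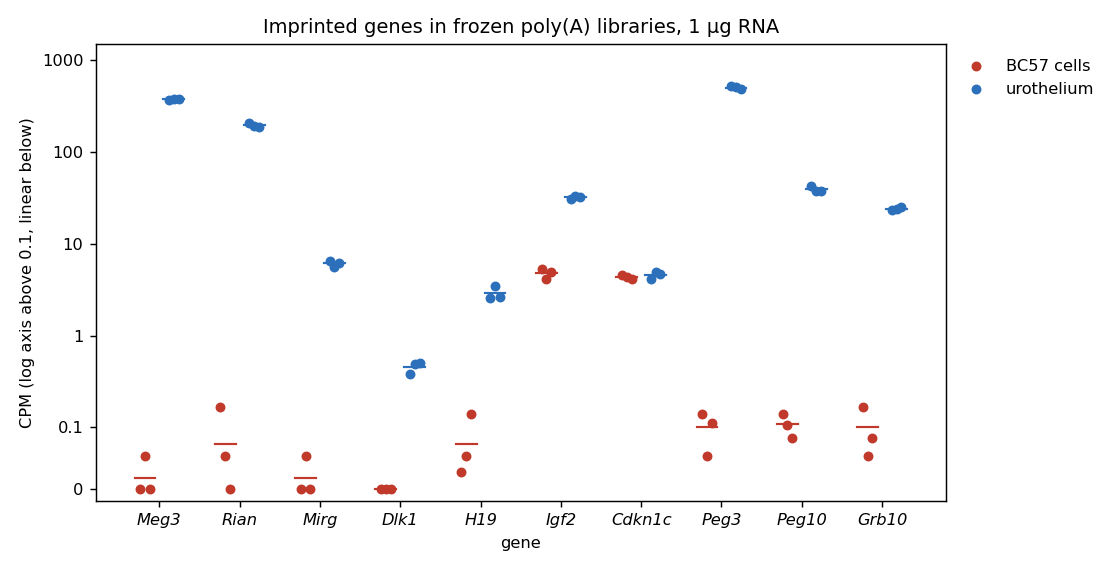
Levels of the 10 imprinted genes (CPM, log axis above 0.1 and linear below) in 3 BC57 and 3 urothelium poly(A) libraries; points are libraries and lines are means. Igf2 and Cdkn1c are the only genes of the 10 whose BC57 points lie above 1 CPM, and Cdkn1c alone overlaps between the samples.

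Meg3 (ENSMUSG00000021268, chromosome 12, 109541001 to 109571726, plus strand, mm10), the first of the long noncoding RNAs of the locus, had 0, 0.0533 and 0 CPM in BC57 cells, against 365, 374 and 381 CPM in urothelium. That is 1 count in all BC57 poly(A) libraries against 28030. Rian (ENSMUSG00000097451, 109603940 to 109661716), the snoRNA host that follows it, had 0.167, 0.0533 and 0 CPM in BC57 cells, against 208, 191 and 185 CPM in urothelium, a ratio of urothelium to BC57 of 2505 (exact 95% counting interval 1216 to 6232, counting error only). Mirg (ENSMUSG00000097391, 109729764 to 109749460), the miRNA host at the far end, had 0, 0.0533 and 0 CPM in BC57 cells, against 6.54, 5.62 and 6.24 CPM in urothelium, a ratio of 556 (99.3 to 22003). All 3 RNAs separated the samples completely.

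Dlk1 (ENSMUSG00000040856, 109452823 to 109463336), which encodes a Notch-family membrane ligand from the paternal copy of the locus, was barely present in urothelium. It had no count in the 3 BC57 poly(A) libraries, against 0.378, 0.486 and 0.507 CPM in urothelium, which puts BC57 at least 14.2-fold lower (floor of 3 counts over the group). In the total-RNA libraries of urothelium it mostly had 0 to 3 counts, and the highest were 19 and 5 counts in the SMARTer FFPE libraries numbered 3, 9 in SMARTer FF library 3 at 250 pg and 5 in Ovation FF library 1 at 50 pg. Only 1 of all 33 BC57 libraries had a count of Dlk1, against 17 of 33 urothelium libraries.

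Reads over the miRNA hairpin genes come from the region of the host RNAs, which were chosen on the difference between the samples. They are given as values, as raw sums over the 33 libraries of each sample that are not scaled to depth. All 45 hairpin genes had a count in some urothelium library and 10 in some BC57 library, with 24 counts over all BC57 libraries and 1111 over all urothelium libraries. Of the 24 BC57 counts, 18 came from SMARTer FFPE 2 ng library 3. Mir433 led with 3 counts in BC57 cells and 134 in urothelium, followed by Mir485 with 2 and 70, and Mir410 with 0 and 71. These libraries were not made from small RNA, so the counts are of longer RNA over the hairpins and give no level of the mature miRNAs printed above.

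On chromosome 7, H19 (ENSMUSG00000000031, 142575529 to 142578143, minus strand), the maternally expressed noncoding RNA that hosts miR-675, had 0.0278, 0.0533 and 0.138 CPM in BC57 cells, against 2.54, 3.48 and 2.63 CPM in urothelium. The ratio was 37.5 (17.9 to 94.5). Igf2 (ENSMUSG00000048583, 142650766 to 142666816), the insulin-like growth factor of fetal growth, had 5.34, 4.10 and 4.86 CPM in BC57 cells, against 30.8, 33.02 and 32.4 CPM in urothelium, a ratio of 6.58 (5.94 to 7.30). The annotation places the antisense gene Igf2os over Igf2, and the use of strand in the counting is not given, so reads of the pair may be shared. Thus Igf2 separated the samples by far less than Meg3, Rian or Mirg did.

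Cdkn1c (ENSMUSG00000037664, 143458339 to 143461050), which encodes the cyclin-dependent kinase inhibitor p57, had 4.56, 4.32 and 4.15 CPM in BC57 cells, against 4.11, 4.98 and 4.63 CPM in urothelium. The ratio was 1.06 (0.917 to 1.23), and the libraries overlapped.

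Peg3 (ENSMUSG00000002265, chromosome 7, 6703892 to 6730431), a paternally expressed zinc finger protein gene, had 0.139, 0.0533 and 0.111 CPM in BC57 cells, against 519, 504 and 482 CPM in urothelium, a ratio of 4532 (2464 to 9451). Peg10 (ENSMUSG00000092035, chromosome 6, 4747306 to 4760517), a domesticated retrotransposon gene needed in the placenta, had 0.139, 0.107 and 0.0829 CPM in BC57 cells, against 42.8, 37.7 and 37.9 CPM in urothelium, a ratio of 355 (193 to 741). Grb10 (ENSMUSG00000020176, chromosome 11, 11930508 to 12038683), an adaptor that dampens insulin and IGF receptor signalling, had 0.167, 0.0533 and 0.0829 CPM in BC57 cells, against 23.5, 23.7 and 24.9 CPM in urothelium, a ratio of 219 (119 to 459). The 3 genes lie on 3 chromosomes and each stood at or under 10 counts in the BC57 poly(A) libraries.

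Levels between genes were compared per exon length (CPM per kb, poly(A)). In BC57 cells Cdkn1c led at 2.13 ± 0.102 CPM per kb and Igf2 followed at 0.833 ± 0.109 (SD, n = 3 libraries), and the other 8 genes stood at or below 0.0297 CPM per kb with libraries that mostly overlapped. In urothelium the order was Peg3 at 37.7 ± 1.43, Meg3 at 20.7 ± 0.463, Rian at 10.7 ± 0.652, Peg10 at 5.92 ± 0.435, Igf2 at 5.60 ± 0.198, Grb10 at 2.64 ± 0.0836, Cdkn1c at 2.24 ± 0.214, H19 at 1.17 ± 0.211, Mirg at 0.842 ± 0.0641 and Dlk1 at 0.0808 ± 0.0122 CPM per kb. Peg10 and Igf2 overlapped between libraries, and each other pair of neighbours in urothelium did not.

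**Figure D2:**
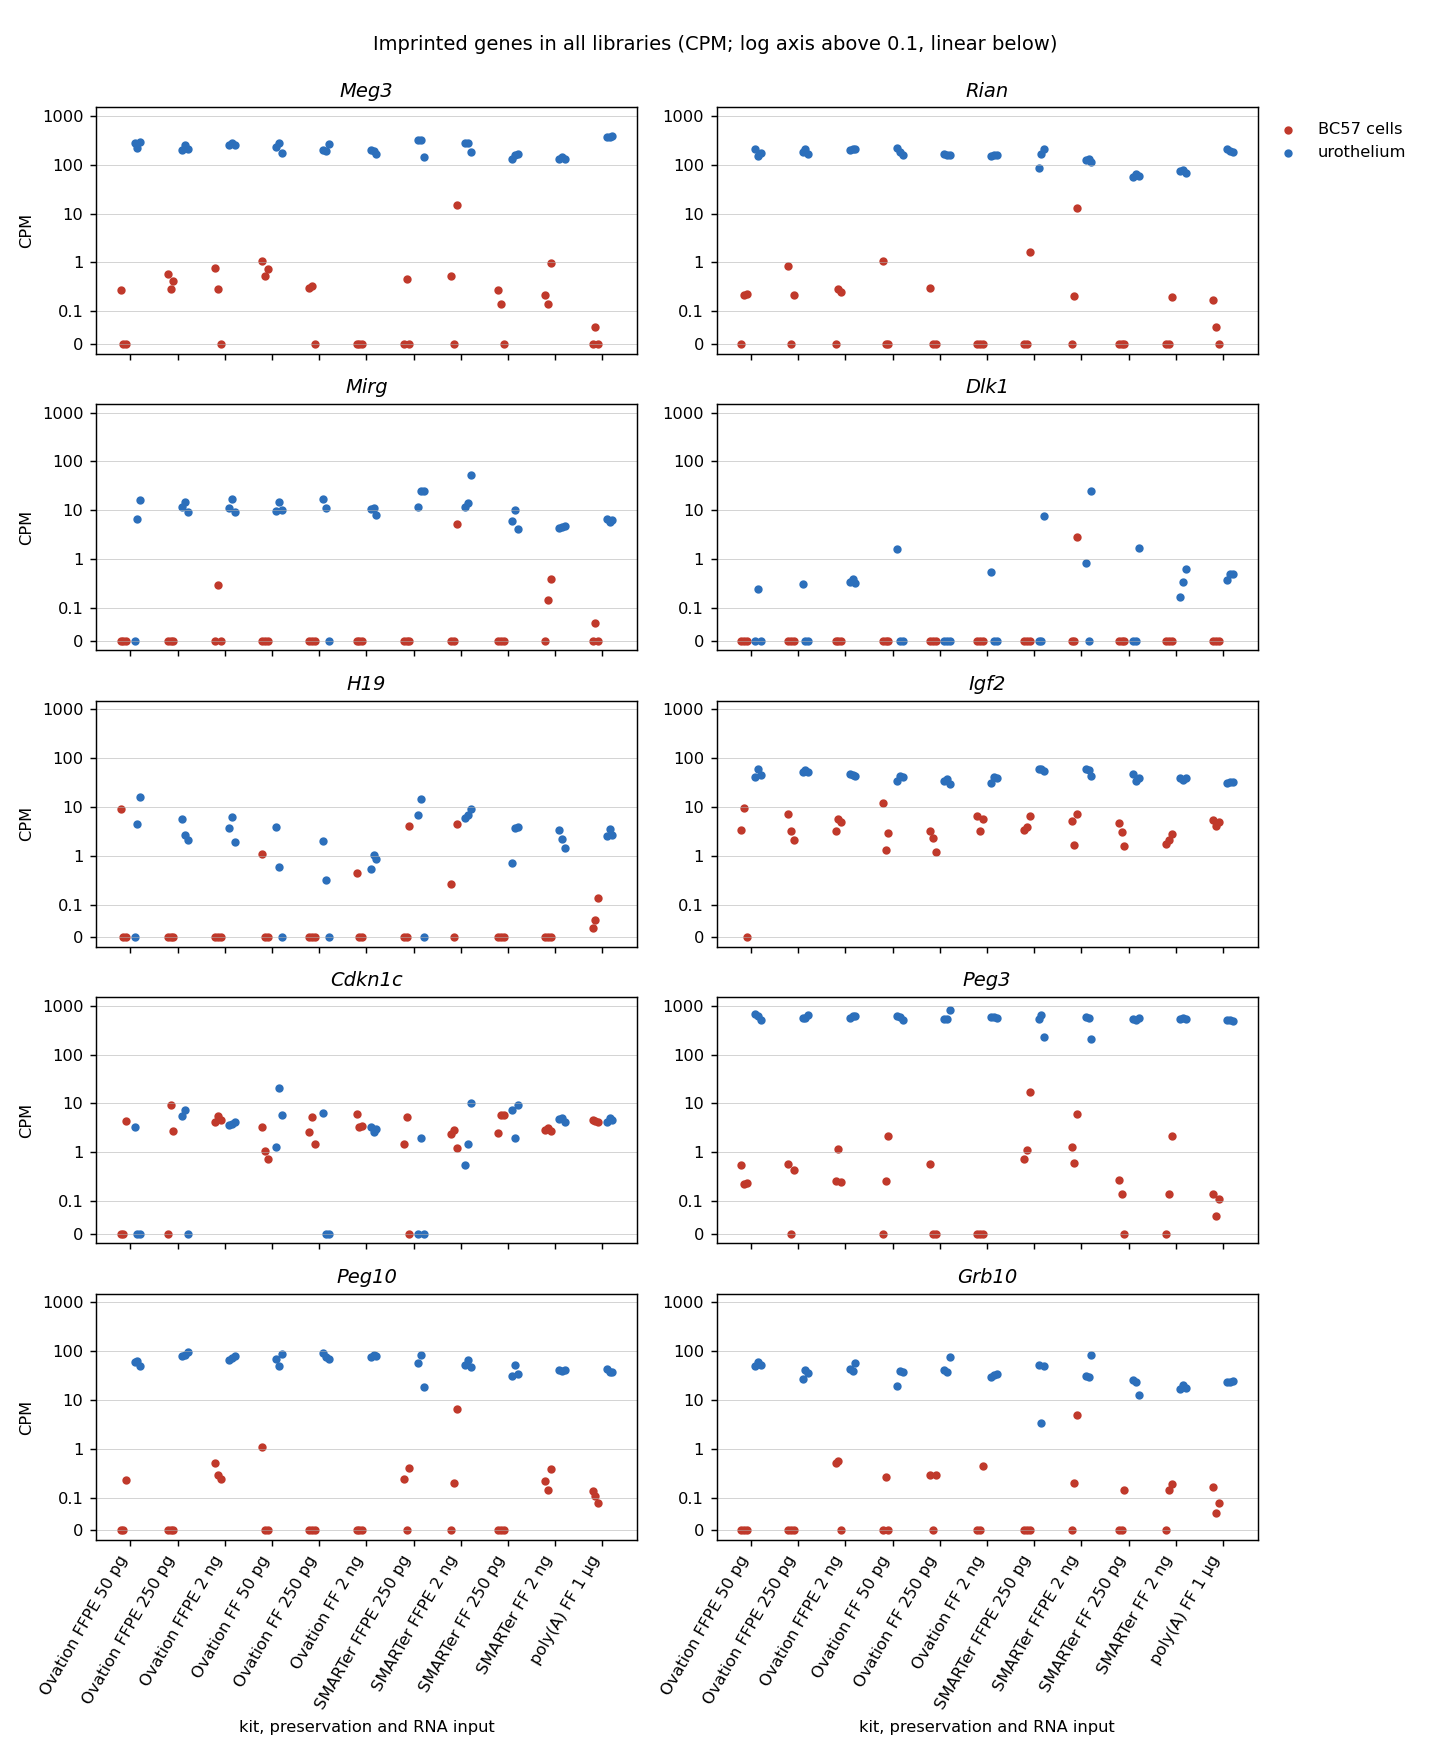
Levels of each of the 10 genes (CPM, log axis above 0.1 and linear below) in all 66 libraries, by kit, preservation and RNA input, with BC57 cells left of urothelium in each condition; each point is 1 library. Meg3, Rian, Igf2, Peg3, Peg10 and Grb10 separate the samples in all 11 conditions, and points on the 0 line are libraries without a count.

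The separation was followed over the 11 combinations of kit, preservation and input in which both samples were sequenced. All 3 BC57 libraries lay below all 3 urothelium libraries in 11 of 11 conditions for Meg3, Rian, Igf2, Peg3, Peg10 and Grb10, in 9 for Mirg, 7 for H19, 3 for Dlk1 and 1 for Cdkn1c. With Ovation FF, 7, 6 and 8 of the 10 genes lay lower in BC57 cells at 50 pg, 250 pg and 2 ng, where 21.6%, 20.3% and 31.8% of all genes with a count did. With Ovation FFPE the counts were 6, 8 and 9 at the same inputs, beside 19.3%, 23.6% and 31.6%. SMARTer FF gave 8 at 250 pg and 10 at 2 ng, beside 23.3% and 28.6%, and SMARTer FFPE 7 and 8, beside 10.5% and 16.5%. Without the libraries numbered 3 that stood apart, a setting chosen after seeing the data, 8 lay lower in Ovation FF at 250 pg (31.3% of genes), 8 in SMARTer FFPE at 250 pg (26.8%) and 8 in SMARTer FFPE at 2 ng (37.6%). Nothing is read from these counts, for the reason given above. Cdkn1c lay higher in all 3 BC57 libraries in Ovation FFPE at 2 ng (23.2% of genes lay higher), where it had 4.19, 5.49 and 4.66 CPM, against 3.66, 3.84 and 4.18 CPM in urothelium. In SMARTer FF at 2 ng it lay lower, with 2.81, 3.13 and 2.73 CPM in BC57 cells, against 4.83, 5.15 and 4.21 CPM in urothelium. In the remaining 9 conditions the Cdkn1c libraries overlapped.

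Igf2 was counted in 32 of 33 BC57 libraries, and the ratio of urothelium to BC57 cells ran from 6.58 in poly(A) to 17.02 (12.2 to 24.4) in SMARTer FF at 2 ng. Cdkn1c was counted in 29 of 33 BC57 libraries, more than its 26 of 33 urothelium libraries. Peg3 was counted in 24 BC57 libraries, Meg3 in 20, Peg10 in 15, Rian and Grb10 in 14, H19 in 9 and Mirg in 5. For these 7 genes most of the BC57 libraries with a count held 1 to 5 counts.

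The few larger BC57 counts lay in single libraries. SMARTer FFPE 2 ng library 3 held 38 counts of Meg3, 32 of Rian, 13 of Mirg, 7 of Dlk1, 16 of Peg10 and 12 of Grb10, while libraries 1 and 2 of that group held at most 2 counts of any of these genes. With all libraries, the urothelium to BC57 ratio in that condition was 76.5 for Meg3, 44 for Rian and 268 for Peg3. Without the libraries numbered 3 of both samples, a setting chosen after seeing the data, it was 1235 (341 to 10210) for Meg3, 1148 (206 to 45400) for Rian and 643 (326 to 1490) for Peg3. The same BC57 library held the endothelial list at 47.97 CPM, against 3.36 and 5.28 CPM in libraries 1 and 2, and the immune list at 59.7 CPM, against 17.6 and 14.2 CPM. Their part in the counts of the imprinted genes was not tested. At 250 pg, BC57 SMARTer FFPE library 3 held 42 counts of Peg3, against 3 and 5 in libraries 1 and 2, and the Peg3 ratio was 118 with it and 610 without the libraries numbered 3. The most H19 in any BC57 library was 32 counts (8.92 CPM), in library 1 of Ovation FFPE at 50 pg, and libraries 2 and 3 of that group had none.

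Markers of other cell types moved with the difference between the samples. In the poly(A) libraries, 11 of 12 fibroblast markers, 10 of 10 endothelial, 10 of 10 smooth muscle and 11 of 12 tested immune markers were lower in BC57 cells (edgeR quasi-likelihood test, adjusted p under 0.05, where 48.5% of all 17934 genes tested were lower). The endothelial sum was 3.50 to 4.58 CPM in BC57 cells, against 453 to 475 CPM in urothelium, and the smooth muscle sum 29.7 to 31.9 CPM, against 313 to 332 CPM. Lum and Dpt, which mark connective tissue, had no count in BC57 poly(A) libraries 2 and 3. All 13 proliferation markers were higher in BC57 cells, where 42.8% of all genes tested were. Their part in the levels of the imprinted genes was not tested.

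Formalin fixation was tested in urothelium for each kit and input. This test does not use the difference between BC57 cells and urothelium that was in view when the genes were chosen. Earlier results of these data were known at that choice. In Ovation libraries from 2 ng, 3 of the 7 members with enough counts were higher in FFPE material and 4 were not called (edgeR quasi-likelihood test, Benjamini-Hochberg adjusted over all genes). Of all 13354 genes tested, 37.3% were called and 19.3% were higher. Meg3 had 260, 279 and 252 CPM in FFPE urothelium, against 199, 187 and 170 CPM in FF urothelium (log2 fold change 0.54, SE 0.079, adjusted p = 1.06e-07). Rian had 198, 208 and 212 CPM in FFPE urothelium, against 153, 156 and 156 CPM in FF urothelium (0.43, SE 0.082, adjusted p = 1.56e-05). The FFPE libraries lay above the FF libraries for both RNAs. Grb10 had 42.6, 40.3 and 56.3 CPM in FFPE urothelium, against 30.4, 32.4 and 34.9 CPM in FF urothelium (0.54, SE 0.16, adjusted p = 0.00644), and it was no longer called without FFPE library 3 (0.38, adjusted p = 0.0864).

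Mirg, Igf2, Peg3 and Peg10 were not called in that comparison. Igf2 had a log2 fold change of 0.29 (SE 0.15, adjusted p = 0.147) and its libraries did not overlap, with 42.8 to 46.2 CPM in FFPE and 30.9 to 40.6 CPM in FF urothelium. Peg3 averaged 601 ± 31.2 CPM (SD, n = 3) in FFPE urothelium, against 577 ± 22.4 CPM in FF urothelium (0.09, SE 0.064, adjusted p = 0.303). Peg10 averaged 73.8 ± 7.42 CPM in FFPE urothelium, against 78.4 ± 3.74 CPM in FF urothelium (-0.06, SE 0.12). Cdkn1c, H19 and Dlk1 were below the filter on low counts.

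The fibroblast sum was 13047 to 13569 CPM in these FFPE libraries, against 8859 to 9578 CPM in FF, with 8 of 11 tested markers higher and none lower (19.3% of all genes tested were higher). The urothelial sum was 6505 to 6739 CPM in FFPE, against 9551 to 10208 CPM in FF, with 10 of 14 markers lower and none higher (17.9% of all genes tested were lower). Of 5 adipocyte markers only Fabp4, which endothelial cells express too, had a count, at 109 to 124 CPM in FFPE, against 361 to 407 CPM in FF. The endothelial marker Pecam1 overlapped, with 64.5, 85.6 and 89.1 CPM in FFPE, against 78.6, 84.9 and 84.2 CPM in FF. Summed proliferation markers stood at 68.8 to 87.5 CPM in FFPE, against 110 to 135 CPM in FF. Their part in the changes of Meg3, Rian and Grb10 was not tested.

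**Figure D3:**
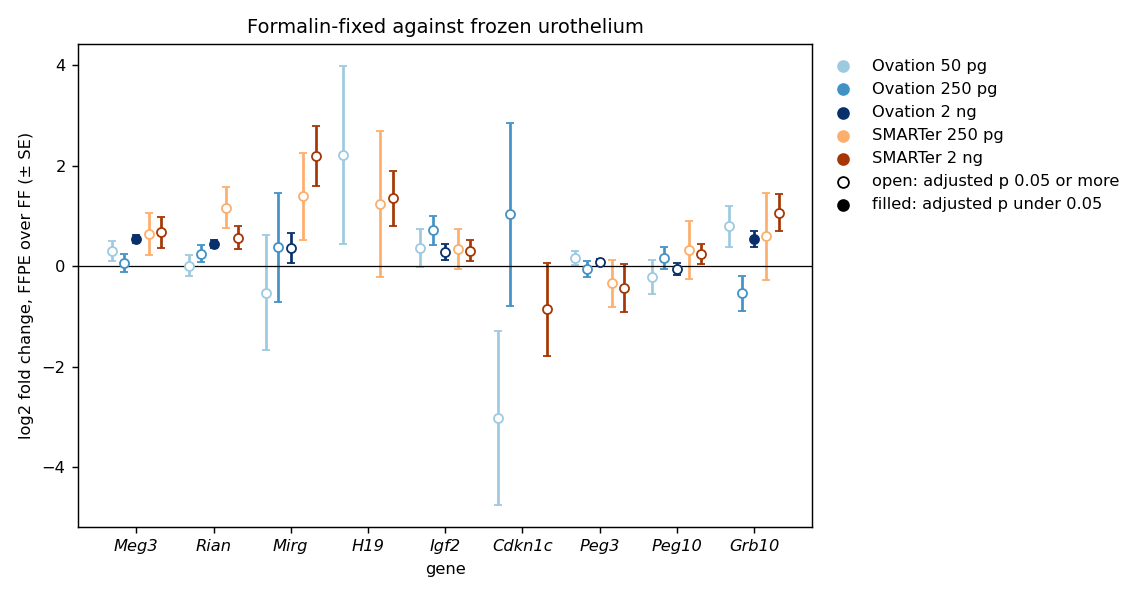
Log2 fold change of FFPE over FF urothelium (± SE, edgeR) for the members with enough counts, by kit and input; filled points passed adjusted p under 0.05. Only Meg3, Rian and Grb10 with Ovation at 2 ng are filled, and the error bars are widest for Cdkn1c, H19 and Mirg.

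At lower inputs and with SMARTer, no member was called with all libraries. None of 9 members was called in Ovation at 50 pg (3.98% of all genes called), none of 8 at 250 pg (3.3%, and none of 8 without FF library 3, where 7.18% of genes were called), none of 8 in SMARTer at 250 pg (0 of 13902 genes) and none of 9 in SMARTer at 2 ng (1.87%). At an unadjusted p under 0.05, the numbers were 0, 1, 1 and 4 in that order, and DESeq2 called 0, 0, 0 and 1 (Mirg). In SMARTer at 2 ng, Meg3 had 278, 284 and 187 CPM in FFPE urothelium, against 133, 145 and 131 CPM in FF urothelium (0.67, SE 0.31, adjusted p = 0.218), and the lowest FFPE value was that of library 3. Without the FFPE library 3, 27.5% of 15004 genes and 6 of 9 members were called, Meg3 (0.86, adjusted p = 2.39e-06), Rian (0.65), Mirg (1.30), Igf2 (0.44) and Grb10 (0.54) higher and Cdkn1c lower (-2.39, adjusted p = 0.0107). Without the libraries numbered 3 of both groups 22.8% of 14782 genes and 5 of 9 members were called, and Grb10 was not (0.53, adjusted p = 0.117). At 250 pg with SMARTer, Meg3 was called without FFPE library 3 (0.93, adjusted p = 0.0280), where 1.99% of 15017 genes were, and not without the libraries numbered 3 of both groups (1.01, adjusted p = 0.101). Relative to TMM, scaling by library totals moved the median of all genes by 0.27 at 250 pg and 0.31 at 2 ng with SMARTer, and the fold changes given are those scaled by TMM.

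In BC57 cells only Igf2, and in Ovation at 2 ng and SMARTer also Cdkn1c, had enough counts for a test of fixation. Neither was called by edgeR or DESeq2, nor had an unadjusted p under 0.05, with either kit at any input. Of all genes, 3.96%, 15.3% and 32.3% were called with Ovation at 50 pg, 250 pg and 2 ng, and 2.2% and 17.8% with SMARTer at 250 pg and 2 ng. With Ovation at 2 ng Igf2 had 3.14, 5.78 and 4.91 CPM in FFPE cells, against 6.52, 3.23 and 5.74 CPM in FF cells (-0.03, SE 0.39, adjusted p = 0.967). Cdkn1c had 4.19, 5.49 and 4.66 CPM in FFPE cells, against 6.08, 3.23 and 3.53 CPM in FF cells (0.29, SE 0.39, adjusted p = 0.619). With the Ovation 2 ng libraries of both samples in 1 fit, the fixation effect in BC57 cells minus that in urothelium was -0.35 for Igf2 (SE 0.383, adjusted p = 0.706) and -0.15 for Cdkn1c (SE 0.628, adjusted p = 0.96), where 5.9% of 14527 genes were called by edgeR. The other 6 members in that fit had 0 or 1 count over the 3 BC57 FF libraries together, too few for the difference to be read.

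In FF urothelium, Meg3 was lower in both total-RNA kits than after poly(A) selection, while Igf2, Peg3 and Peg10 were higher. Some of the higher calls were lost with library totals, as given below. Kit, RNA input (2 ng against 1 µg) and depth changed together in these comparisons, so their parts cannot be told apart. With Ovation at 2 ng, 5 of 9 tested members were higher and 2 lower than in poly(A) libraries, where 56.7% of 16081 genes were called, 28.1% higher and 28.6% lower. With SMARTer at 2 ng, 4 were higher and 2 lower, where 57.7% of 16294 genes were called, 29% higher and 28.7% lower. The fold changes are relative to the bulk of genes (TMM). Scaling by library totals moves the median of all genes by -0.21 in the Ovation and by -0.55 in the SMARTer comparison, so that a gene with equal CPM can have a positive fold change here.

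Meg3 was lower with both kits, with 199, 187 and 170 CPM in Ovation and 133, 145 and 131 CPM in SMARTer, against 365, 374 and 381 CPM in poly(A) libraries (log2 fold change -0.80, SE 0.065, and -0.89, SE 0.057; adjusted p = 1.37e-11 and 8.23e-11). Rian was lower with SMARTer, at 73.2, 79.5 and 67.5 CPM, against 208, 191 and 185 CPM in poly(A) (-0.85, SE 0.070, adjusted p = 3.39e-09), and was not called with Ovation at 153, 156 and 156 CPM (-0.11, adjusted p = 0.156). The Ovation libraries lay below poly(A) for Rian, and it was called lower when library totals set the scale (-0.33, adjusted p = 1.68e-04) and with no filter (-0.21, adjusted p = 0.00905). Mirg was higher with Ovation, at 10.8, 11.3 and 7.85 CPM, against 6.54, 5.62 and 6.24 CPM in poly(A) (0.90, adjusted p = 0.00113), and not called with SMARTer (0.12). The order Meg3, Rian, Mirg held in each kit, but the distances between them did not. H19 was lower with Ovation (-1.59, adjusted p = 0.0168) on 5 counts in all, and was not called without FF library 1 or FF library 3 (adjusted p = 0.0746 and 0.0598).

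Among all members Peg10 had the largest rise over poly(A), with 74.8, 82.3 and 78.1 CPM in Ovation, against 42.8, 37.7 and 37.9 CPM in poly(A) (1.21, SE 0.092, adjusted p = 3.15e-12). With SMARTer it had 41.4, 40.02 and 40.8 CPM (0.61), a call that was lost when library totals set the scale (0.05, adjusted p = 0.611). Peg3 was higher with Ovation (0.41, SE 0.056) and SMARTer (0.68, SE 0.054), at 577 ± 22.4 and 545 ± 9.08 CPM, against 502 ± 19.1 CPM in poly(A), and with library totals the SMARTer call was lost (0.12, adjusted p = 0.0746). Igf2 was higher with both kits (0.43 and 0.78), at 37.1 ± 5.37 CPM in Ovation and 37.6 ± 1.75 CPM in SMARTer, against 32.1 ± 1.13 CPM in poly(A), and its Ovation call was lost with library totals (0.22, adjusted p = 0.101). Grb10 was higher with Ovation at 32.6 ± 2.27 CPM, against 24.0 ± 0.760 CPM in poly(A) (0.65, SE 0.12, adjusted p = 3.29e-05). With SMARTer Grb10 was not called (0.18), and it turned to -0.38 (adjusted p = 0.00586) with library totals. Cdkn1c was called higher with SMARTer (0.60, adjusted p = 0.0245), a call lost with library totals, with no filter, by thinning to equal totals, with the replicate block and without each of 4 single libraries (poly(A) 1 and 3, SMARTer 1 and 2; adjusted p from 0.0552 to 0.0747).

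**Figure D4:**
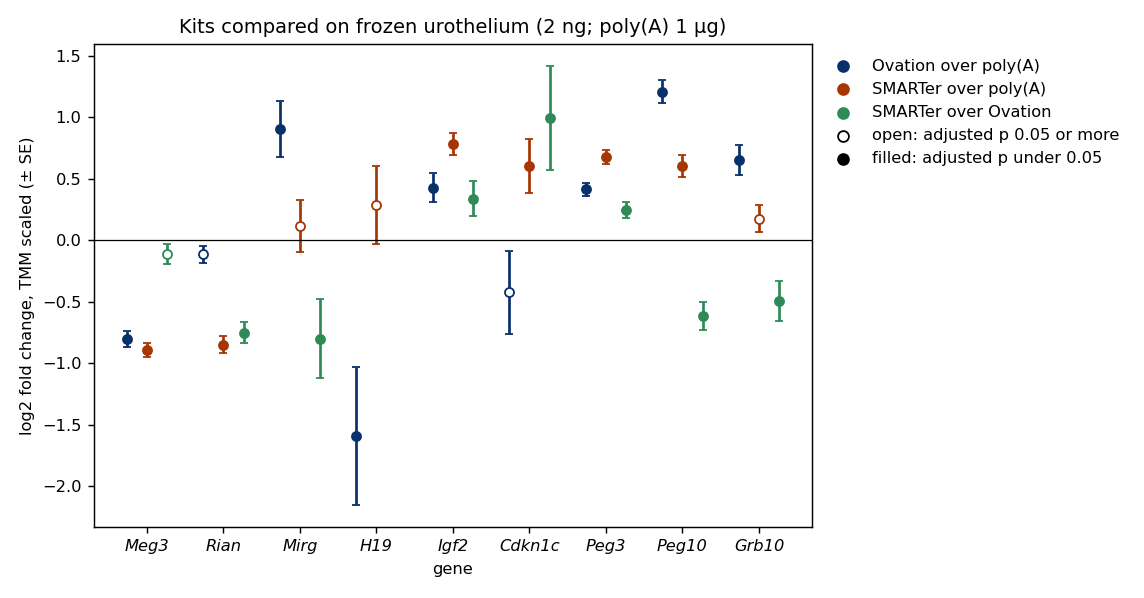
Log2 fold change (± SE, edgeR, TMM scaled) between kits in FF urothelium, 2 ng for Ovation and SMARTer and 1 µg for poly(A); filled points passed adjusted p under 0.05. Meg3 lies below 0 for both kits over poly(A), and Peg3, Peg10 and Igf2 lie above 0 for both.

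Between the total-RNA kits, SMARTer against Ovation, 7 of 8 members were called in FF urothelium at 2 ng, where 48.5% of 13583 genes were. Rian (-0.75, SE 0.088), Mirg (-0.80, SE 0.32), Peg10 (-0.62, SE 0.12) and Grb10 (-0.50, SE 0.16) were lower with SMARTer. Igf2 (0.34), Cdkn1c (1.00) and Peg3 (0.25) were higher, and Meg3 was not called (-0.11, adjusted p = 0.266). Only 4 members were called without Ovation library 1, 2 or 3 or without SMARTer library 1, and also 4 by DESeq2. Library totals moved the median of all genes by -0.33. With them Meg3 was called lower (-0.44), Igf2 and Cdkn1c lost their calls and Peg3 turned to -0.08 (adjusted p = 0.362), with 545 ± 9.08 CPM in SMARTer and 577 ± 22.4 CPM in Ovation libraries. In BC57 cells neither Igf2 nor Cdkn1c was called in this comparison (52.9% of 12044 genes called), nor in either total-RNA kit against poly(A) (59.9% of genes called for Ovation and 57.5% for SMARTer). Igf2 was called lower in BC57 SMARTer against poly(A) without SMARTer library 3 (-0.76, adjusted p = 0.0485).

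Rtl1, the retrotransposon-like gene of the paternal copy that lies between Meg3 and Rian, was the other imprinted gene that moved furthest between kits. It had 6.14 ± 1.29 CPM in Ovation, against 0.0556 ± 0.0246 CPM in poly(A) libraries of FF urothelium (log2 fold change 6.81, SE 0.51, adjusted p = 2.30e-12). An antisense RNA of the Meg3 transcript overlaps Rtl1, and without the strand setting of the counting the 2 cannot be told apart. Rtl1 also rose with fixation, to 15.8 ± 3.68 CPM in FFPE, against 6.14 ± 1.29 CPM in FF urothelium with Ovation at 2 ng (1.40, SE 0.30, adjusted p = 1.73e-04). Of 38 other imprinted genes tested in Ovation against poly(A), 16 were higher and 4 lower (28.1% and 28.6% of all genes tested), and after Rtl1 the largest changes were those of the membrane protein gene Nnat (1.499), the zinc finger gene Plagl1 (1.11) and Tssc4 (-1.06). Of 30 tested for fixation in that kit, 10 were higher and 5 lower (19.3% and 17.9% of all genes tested), among them the decoy receptor gene Tnfrsf23 (1.45), the noncoding RNA Airn (1.36) and Plagl1 (1.12).

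RNA input was followed in Ovation libraries of FF urothelium. Meg3 had 227, 281 and 174 CPM at 50 pg, 200, 190 and 262 CPM at 250 pg, and 199, 187 and 170 CPM at 2 ng. Peg3 had 610, 578 and 504 CPM at 50 pg, 537, 546 and 820 CPM at 250 pg, and 581, 597 and 552 CPM at 2 ng. The abundant members thus overlapped between 50 pg and 2 ng, apart from Rian at 158 to 223 CPM at 50 pg and 153 to 156 CPM at 2 ng. None of 7 members was called at 50 pg against 2 ng (1, Rian, had an unadjusted p under 0.05, and DESeq2 called 0), where 0 of 12801 genes were called by edgeR and 706 had an unadjusted p under 0.05. In BC57 cells Igf2, the only member tested, was not called (0.0266% of 11259 genes called). Among the scarce members, Cdkn1c had 1.30, 21.2 and 5.89 CPM at 50 pg, 6.32, 0 and 0 CPM at 250 pg, and 3.25, 2.57 and 3.05 CPM at 2 ng. Mirg had 9.76, 14.7 and 10.2 CPM at 50 pg, 16.96, 11.03 and 0 CPM at 250 pg, and 10.8, 11.3 and 7.85 CPM at 2 ng. At 250 pg the 262 CPM of Meg3, the 820 CPM of Peg3 and the missing Mirg were all those of library 3, the library that stood apart, and the part of that library in these values was not tested.

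Other imprinted genes, a list that holds none of the 10, were tested between BC57 cells and urothelium in the poly(A) libraries. The list was also chosen with earlier results of these data known, and it holds neighbours of members. Its counts and median are therefore no independent support for the difference seen in the members. Of 55 genes 52 were in the tables and 40 had enough counts, and 12 were higher and 25 lower in BC57 cells, where 91.3% of all 17934 genes were called, 42.8% higher and 48.5% lower. The median of the list was -0.87 on the log2 scale, beside -0.12 over all genes tested, and it was the same with genes without a BC57 count set to their bound. Furthest down among those with a BC57 count was Dcn, the collagen-binding proteoglycan decorin, at 0.403 ± 0.183 CPM in BC57 cells, against 1678 ± 63.8 CPM in urothelium (-11.78, SE 0.091). Zim1, the maternally expressed neighbour of Peg3, had no count in BC57 cells, against 23.1 ± 1.78 CPM in urothelium, and was at least 691-fold lower. Ndn (necdin) had no count either and was at least 317-fold lower, as were Peg12, at least 43.8-fold, and Dio3, the thyroid hormone deiodinase at the far end of the Meg3 locus, at least 15.8-fold. Sgce, which shares a promoter region with Peg10 and encodes a sarcoglycan, was at 0.136 ± 0.0685 CPM in BC57 cells, against 40.5 ± 1.66 CPM in urothelium (-8.20, SE 0.14).

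The direction was not shared by the list as a whole. Sfmbt2, a Polycomb protein gene, stood at 16.9 ± 0.613 CPM in BC57 cells, against 0.246 ± 0.106 CPM in urothelium (6.24, SE 0.16). Phlda2, a negative regulator of placental growth next to Cdkn1c on distal chromosome 7, had 14.1 ± 0.469 CPM in BC57 cells, against 1.91 ± 0.351 CPM in urothelium (2.98, SE 0.11). Mest (2.92) was higher as well, and Igf2r, the receptor that clears IGF2, stood at 464 ± 4.79 CPM in BC57 cells, against 180 ± 6.37 CPM in urothelium (1.51, SE 0.040). Library totals in place of TMM move the median of all genes by -0.14 here, and of the higher genes H13 (0.14) lost its call with them.

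**Figure D5:**
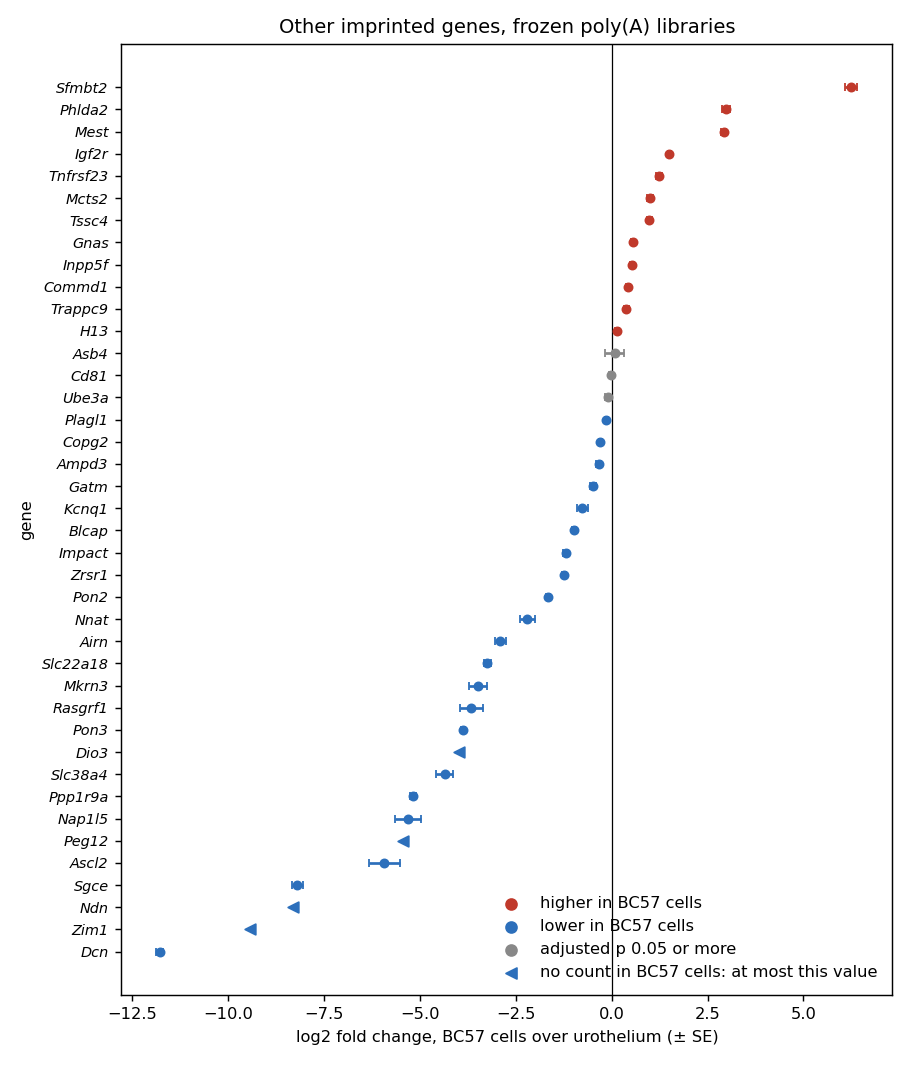
Log2 fold change of BC57 cells over urothelium (± SE, edgeR) for 40 other imprinted genes in poly(A) libraries; triangles are genes without a count in BC57 cells, drawn at their bound from a floor of 3 counts. Of the genes, 12 are higher and 25 lower in BC57 cells.

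Genes that act with the members went both ways in the poly(A) libraries, where 42.8% of all genes tested were higher and 48.5% lower in BC57 cells. Of 9 IGF pathway genes, 4 were higher and 4 lower in BC57 cells. The mRNA-binding protein genes Igf2bp1 (3.20), Igf2bp2 (2.09) and Igf2bp3 (1.90) were higher and the ligand gene Igf1 (-4.59) lower. Of 12 partners and relatives of p57, 9 were higher and 2 lower beside the same shares of all genes, led by the inhibitor gene Cdkn2a at 171 ± 5.55 CPM in BC57 cells, against 0.944 ± 0.0488 CPM in urothelium (7.64, SE 0.078), and the cyclin genes Ccne1 (6.38), Ccnd1 (2.79) and Ccne2 (2.06). Of 13 tested genes that set or keep imprints, 6 were higher and 6 lower, again beside 42.8% and 48.5% of all genes. The maintenance methylation genes Uhrf1 (6.02) and Dnmt1 (3.26) were higher. The germline cofactor gene Dnmt3l (-8.38) and the 5-methylcytosine dioxygenase genes Tet2 (-4.58) and Tet1 (-3.30) were lower. Of the imprint-binding zinc finger genes, Zfp57 stood at 20.8 ± 0.670 CPM in BC57 cells and 22.6 ± 0.916 CPM in urothelium (0.02, adjusted p = 0.744). Zfp445 was called lower, at 24.8 ± 1.36 CPM in BC57 cells, against 91.2 ± 8.06 CPM in urothelium (-1.74, SE 0.058).

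The genes most like Meg3 over the 22 group means were looked for among 18373 genes outside the 10, by Pearson correlation of log2(CPM + 1). They were Smoc2 (r = 0.998), Cadm3 (0.997), Plxdc2 (0.997), Htra3 (0.996) and Mylip (0.996). Within the 11 urothelium groups alone, the same genes had r of 0.64, 0.70, 0.37, 0.59 and 0.46, so most of the likeness over 22 groups was the step between the samples, which share kits and depth across these points. Rian was the member closest to Meg3 in urothelium alone (r = 0.79), and the others ranged from -0.26 for Cdkn1c to 0.41 for Grb10. Without the libraries numbered 3 that stood apart, r in urothelium was 0.65 for Rian, -0.42 for Cdkn1c, 0.12 for Grb10 and 0.56 for H19 (0.33 with them), and the 5 genes named above had r of 0.61, 0.64, 0.47, 0.83 and 0.39. The values within urothelium thus moved with these libraries, while over 22 groups those 5 genes stayed at 0.996 to 0.998. These correlations are descriptions and carry no p-value.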

How the data were processed

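Raw counts per gene and normalized values were deposited for 66 libraries of mouse RNA. For these counts the authors named the build mm10 and the tools STAR, SAMtools and featureCounts, without roles or versions, per the submitters' processing notes. The deposited normalized tables hold log2 values that were recomputed from the counts by their upper quartile to within 5.33e-14. They served as an alternative. Symbols came from GENCODE M21, which gave 37607 of 39179 genes a symbol. Total counts set the precision, and intervals and floors cover counting error only.

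Counts were tested with edgeR 4.0.16 (R 4.3.3; TMM, filterByExpr, quasi-likelihood test, Benjamini-Hochberg over all genes, called at an adjusted p under 0.05), using only the libraries compared. Each SE was obtained by dividing the log2 fold change by the root of its F value. DESeq2 1.42.0, limma 3.58.1 on the deposited log2 values, library totals, no filter, thinning, the replicate block and leaving out libraries were alternatives. The tests were tried on simulated data with the same fixed dispersion for every gene. That setting does not match the groups with noisier libraries, so no assurance is drawn from it for them. The members and gene lists were chosen with earlier results of these data known. All 10 members were named, with up to 4 called genes of largest change per list; genes added beyond that were chosen after their values were seen. Replicate numbers went with correlated deviations (over 0.1 for every number) only in BC57 SMARTer FFPE against FF at 2 ng (0.219, 0.161 and 0.282) among the tested comparisons. Among those given as values without a test, they did so in BC57 cells against urothelium with SMARTer FFPE at 2 ng (0.249, 0.243 and 0.352).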

Additional observations from a re-analysis of the deposited data

How the results depend on the processing

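Over genes and settings, 1517 gene results stayed on their side of the threshold (67 of them, called in neither setting, changed sign), 4 had no adjusted p, 44 lost a call, 32 gained one and 2 reversed, both under library totals in place of TMM: Grb10 in SMARTer against poly(A) urothelium (-0.378) and Peg3 in SMARTer against Ovation urothelium (-0.082). The number of members called moved as follows. Fixation of urothelium with Ovation at 2 ng gave 3, and 5 by limma on the deposited log2 values (Igf2 and Peg3 added). With SMARTer at 2 ng it gave 0, but 2 with library totals, 1 with DESeq2 and, leaving out libraries, 0 to 6. With SMARTer at 250 pg leaving out libraries gave 0 to 1. Fixation of BC57 cells with SMARTer at 2 ng gave 2 with no filter (Meg3 and Rian, whose counts lay in library 3). BC57 SMARTer against poly(A) gave 2 with library totals (both lower), 2 with no filter (Meg3 and Peg3, higher) and 0 to 1 on leaving out libraries. SMARTer against Ovation gave 7 in urothelium, 4 with DESeq2 and 4 to 6 on leaving out libraries. It gave 0 in BC57 cells and 1 with library totals. The difference in fixation effect between the samples gave 0, and 2 by limma (Peg3 and Peg10, which had no count in the BC57 FF libraries of that fit). Other imprinted genes called numbered 37 to 38 when libraries were left out, with Ube3a and Cd81 gaining and Plagl1 and H13 losing a call in some of these settings. The causes were not tested. With the replicate block, fixation of urothelium with Ovation at 2 ng kept 3 calls, poly(A) comparisons in urothelium gave 7 (Ovation) and 5 (SMARTer), and SMARTer against Ovation 6; Cdkn1c lost its call in both SMARTer comparisons (adjusted p = 0.0704 and 0.0608) and no other member call changed, so in BC57 SMARTer fixation, where the numbers paired, the count stayed 0. Limma was not run between kits, since the deposited log2 tables are separate by kit. Depth limits Dlk1, H19, Mirg and Cdkn1c, and in BC57 cells every member but Igf2 and Cdkn1c.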
